A study of Mus musculus with 6 samples.

Results

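Aspm, Kif14, Nek2, Cenpl, Ube2t and Lin9, 6 genes grouped as mitosis and spindle genes, were examined in embryonic mouse retina. Ube2t, placed with the control genes, is described below by its part in DNA repair. They were chosen by name, as spindle, centrosome, kinetochore and G2/M control genes, and each had 1 row among the 1140 complete rows of the deposited gene table, all on chromosome 1. The authors had tested all 6, as they had 646 of the 1140 rows. The compared retinas were T2Isl1/+, carrying an Isl1 knock-in allele at the Tbr2 (Eomes) locus, and T2fx/+, carrying a Tbr2 fx allele and treated by the submitters as wild type. Both groups were C57BL/6 at E15.5 (embryonic day), with 3 libraries each of total RNA from pools of 8 retinas. The knock-in therefore places Isl1, a LIM-homeodomain factor of retinal ganglion cells, under the control of the Tbr2 locus. No Cre or other agent is named in the labels. The table holds 1 FPKM value per gene and group (fragments per kilobase of transcript, scaled to library size), so no value per library, SD or interval can be given. Library depth is unknown.

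Retinal neurons arise from progenitors that divide at the ventricular surface of the neural retina and then leave the cell cycle. Many, but not all, transcripts of the spindle, the centrosome and the kinetochore build up in these progenitors from S phase into mitosis and fall in post-mitotic neurons. In whole retina, transcripts that do so serve as a readout of dividing cells. Many such genes carry CCAAT boxes, bound by the factor NF-Y, and a cell cycle genes homology region, or CHR, bound by the MuvB complex of which LIN9 is a subunit. In pooled tissue, fewer dividing cells and less RNA per dividing cell cannot be told apart.

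Sequence windows around the RefSeq start of 5 of the genes were at hand (GRCm38.p6, the assembly of mm10). They are shown because these motifs are a feature that the choice of genes did not use. Each line runs 5′ to 3′ from 140 bases before to 30 bases after the RefSeq start, with capitals marking CCAAT and the CHR-type motifs TTTGAA and TTTAAA on either strand (ATTGG is CCAAT on the minus strand). The RefSeq starts of Ube2t and Cenpl are those of their loci in the deposited table. Those of Aspm (139454773), Kif14 (136467848) and Nek2 (191821473) lie inside the loci given for them. These loci begin further upstream, at 139453577, 136466363 and 191820163. In GENCODE M21, Aspm starts at 139454772 and Nek2 at 191821444, near their RefSeq starts. Kif14 starts there at 136466343, outside its RefSeq window, so whether that window holds a Kif14 promoter was not tested.
Aspm (chr1:139454633-139454802, plus strand): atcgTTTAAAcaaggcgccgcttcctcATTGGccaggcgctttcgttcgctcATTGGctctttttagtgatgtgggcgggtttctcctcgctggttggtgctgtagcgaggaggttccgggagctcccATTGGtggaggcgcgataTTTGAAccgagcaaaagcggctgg
Kif14 (chr1:136467708-136467877, plus strand): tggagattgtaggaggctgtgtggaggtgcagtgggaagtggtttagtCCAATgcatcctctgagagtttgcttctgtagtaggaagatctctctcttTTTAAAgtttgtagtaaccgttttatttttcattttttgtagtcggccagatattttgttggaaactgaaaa
Nek2 (chr1:191821333-191821502, plus strand): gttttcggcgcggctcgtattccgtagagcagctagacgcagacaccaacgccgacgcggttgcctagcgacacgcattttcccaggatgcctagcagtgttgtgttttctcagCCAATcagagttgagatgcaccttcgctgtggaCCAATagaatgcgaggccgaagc
Cenpl (chr1:161070627-161070796, plus strand): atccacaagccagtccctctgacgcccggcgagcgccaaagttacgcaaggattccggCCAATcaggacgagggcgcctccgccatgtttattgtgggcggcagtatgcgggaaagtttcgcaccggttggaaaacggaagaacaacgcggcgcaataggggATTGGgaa
Ube2t (chr1:134962425-134962594, plus strand): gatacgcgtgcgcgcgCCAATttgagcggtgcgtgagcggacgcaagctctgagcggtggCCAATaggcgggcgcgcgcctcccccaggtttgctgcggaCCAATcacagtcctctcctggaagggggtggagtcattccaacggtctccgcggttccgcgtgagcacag

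CCAAT was present in the 300-base windows of all 5 genes (250 bases before to 50 after the RefSeq start). This count includes the Kif14 window, which lies downstream of the GENCODE M21 start of that gene. Of 32851 such windows in the mouse table, 37.4% held it. At least 2 copies were found in 4 of the 5 windows, those of Aspm, Ube2t, Nek2 and Cenpl, against 11.7% of all windows. Aspm and Ube2t had 3 copies each, and Kif14 had 1. GC content, which bears on how often such letters occur, was 43.7% for the Kif14 window and 53.0% to 59.7% for the other windows, against a median of 52.7% over all windows.

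CHR-type motifs were less regular. TTTGAA was found in 3 of the 5 windows, against 17.9% of all windows, and TTTAAA in 2, against 13.2%. Both counts include the Kif14 window, which does not cover the GENCODE M21 start of that gene. The TTTGAA of Aspm lay at bases 7 to 12 after the start. In Kif14 and Cenpl it lay further upstream, at -228 and -162, outside the printed stretch. Neither motif overlapped a CCAAT, and none was found in the windows of Nek2 or Ube2t. These are matches of letters only, and no binding was measured.

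**Figure D1:**
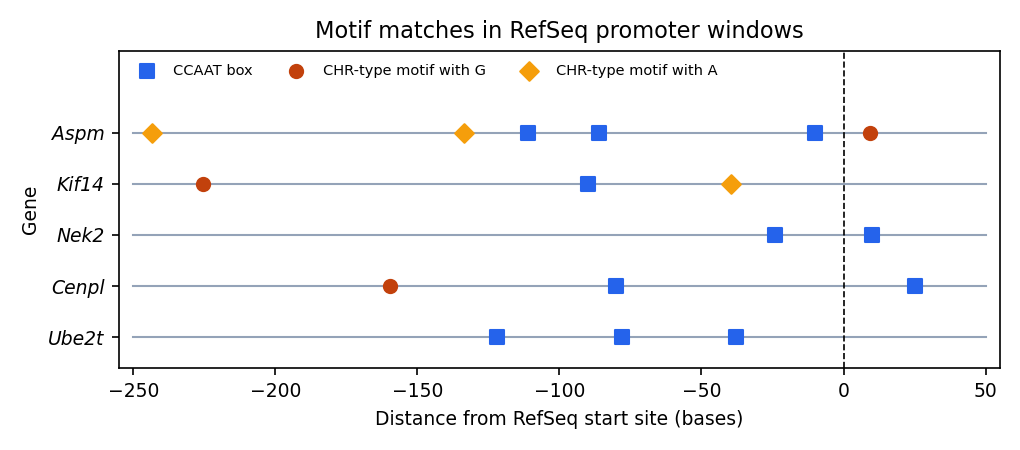
Positions of CCAAT boxes (squares) and of the CHR-type motifs TTTGAA (circles) and TTTAAA (diamonds), on either strand, along the RefSeq promoter windows of 5 genes, in bases from the RefSeq start (dashed line). All 5 windows hold a CCAAT box, and those of Aspm and Ube2t hold 3. The Kif14 window lies downstream of the GENCODE M21 start of that gene.

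None of the 6 genes differed between genotypes by the authors' test. At a q-value under 0.05 in the authors' deposited table (Cuffdiff), 0 were higher and 0 lower in T2Isl1/+ retinas, and all 6 had a q-value of 0.999677. At an unadjusted p-value under 0.05, 0 were called as well. Over all 646 tested rows, 1.55% were called at that q-value, 0.155% higher and 1.39% lower. At the unadjusted p-value 3.72% were, 1.08% higher and 2.63% lower. No call among 6 genes is therefore close to what this background gives and says little of whether the genes differ. The 6 values in T2Isl1/+ retinas differed from those in T2fx/+ retinas by -11.97% to 9.07%.

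Aspm and Kif14, the spindle genes of the 6, had values in T2Isl1/+ retinas below those in T2fx/+ retinas. Aspm (chromosome 1, 139453577 to 139494088, plus strand, mm10), which encodes a spindle pole protein whose loss causes small brain size in humans, had 7.39 FPKM in T2Isl1/+ and 8.14 FPKM in T2fx/+ retinas in the authors' deposited table. Its log2 fold change was -0.14, with an unadjusted p of 0.223 in the authors' deposited table. Kif14 (136466363 to 136530819, plus strand), a kinesin motor of the spindle midzone needed for cytokinesis, had 3.04 FPKM in T2Isl1/+ and 3.45 FPKM in T2fx/+ retinas in the authors' deposited table. It had the widest relative difference of the 6 genes, a log2 fold change of -0.18, and also the smallest unadjusted p, 0.184 in the authors' deposited table. Both are long messages: the longest coding transcript in GENCODE M21 had 9867 bases and 28 exons for Aspm, and 8943 bases and 29 exons for Kif14. A pair of processed pseudogenes, Gm29486 and Gm29485, lies within the Kif14 locus on the same strand.

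Nek2 and Cenpl, the centrosome and the kinetochore gene of the 6, had values in T2Isl1/+ retinas above those in T2fx/+ retinas. Other centrosome and kinetochore genes, given further on, lay on both sides of zero. Nek2 (191820163 to 191833049, plus strand), a kinase that separates the centrosomes before mitosis, was the most abundant of the 6, with 28.6 FPKM in T2Isl1/+ and 26.7 FPKM in T2fx/+ retinas in the authors' deposited table. Its log2 fold change was 0.10 and its unadjusted p 0.363 in the authors' deposited table. The 5′ end of the Nek2 locus overlaps the antisense gene Gm38037, and whether reads were counted by strand is not stated. Cenpl (161070767 to 161086724, plus strand), a subunit of the centromere-bound network of the inner kinetochore, had 11.2 FPKM in T2Isl1/+ and 10.3 FPKM in T2fx/+ retinas in the authors' deposited table. Its log2 fold change of 0.13 (unadjusted p = 0.401, the authors' deposited table) was the highest of the 6.

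Ube2t and Lin9, grouped here as control genes, lay slightly above their T2fx/+ values too. Ube2t (134962565 to 134974179, plus strand), a ubiquitin-conjugating enzyme that acts with the Fanconi anaemia ligase FANCL in the repair of DNA crosslinks, had 14.3 FPKM in T2Isl1/+ and 13.3 FPKM in T2fx/+ retinas in the authors' deposited table. Its log2 fold change was 0.11 (unadjusted p = 0.609, the authors' deposited table). Lin9 (180638982 to 180690687, plus strand), the MuvB subunit named above, had 6.81 FPKM in T2Isl1/+ and 6.45 FPKM in T2fx/+ retinas in the authors' deposited table. The log2 fold change of Lin9 was 0.08 and its unadjusted p 0.605 in the authors' deposited table.

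**Figure D2:**
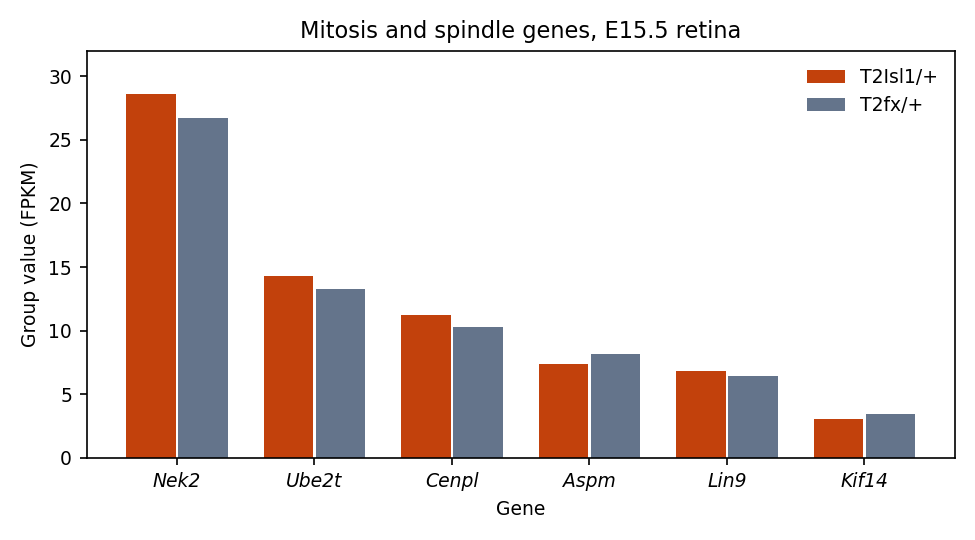
Group values in FPKM, 1 per gene and genotype, of the 6 genes in T2Isl1/+ (orange) and T2fx/+ (grey) retinas; the bars have no error, since the authors combined the libraries of a group. The order of the genes is the same in both genotypes, from Nek2 at 28.6 and 26.7 FPKM to Kif14 at 3.04 and 3.45 FPKM.

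The order of levels was the same in both genotypes: Nek2, Ube2t, Cenpl, Aspm, Lin9 and Kif14. FPKM is scaled to transcript length, so levels can be set side by side between genes. Without values per library it cannot be said which neighbours in this order differ beyond their spread. Ranked among the 646 tested rows, Nek2 stood at 142 in T2Isl1/+ and 153 in T2fx/+ retinas, and Kif14 at 509 in T2Isl1/+ and 498 in T2fx/+ retinas. The middle tested row had 10.4 FPKM in T2Isl1/+ and 10.7 FPKM in T2fx/+ retinas, so Nek2 and Ube2t were above the median row and Aspm, Lin9 and Kif14 below it in both genotypes.

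The 6 differences were no wider than many others in the table. Their median log2 fold change was 0.09, beside 0.01 over all tested rows, and 4 of 6 were above zero, beside 54.6% of tested rows. The log2 fold change of Kif14 was exceeded in size by 18.7% of tested rows and that of Lin9 by 54.3%. Among the 352 tested rows whose higher group value fell in the range of the 6 genes, 3.45 to 28.6 FPKM, 8 had an unadjusted p-value under 0.05 and 2 a q-value under 0.05 in the authors' deposited table. The smallest of those 8 differences was that of Tmco1, with 13.6 FPKM in T2Isl1/+ and 11.4 FPKM in T2fx/+ retinas, a 1.19-fold difference (unadjusted p = 0.0432, the authors' deposited table). The smaller of the 2 called differences was that of Rftn2, at 1.79-fold. No row in this level range with a difference as small as those of the 6 genes had an unadjusted p-value under 0.05, so differences of that size were below what this test called.

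The sign of the difference went with transcript length among the 6 genes, and over the table longer transcripts were less often above zero. When the 612 tested rows with an annotated length were put in 5 groups by length, the median log2 fold change was 0.10, 0.04, 0.05, -0.01 and -0.08 from the shortest group to the longest. Aspm and Kif14 were in the longest group, where 21.95% of rows were above zero. Ube2t, with a coding transcript of 1116 bases, was in the shortest group and had almost that group's median, at 0.11 beside 0.10. Within its own length group, Kif14 stood at percentile 17.1 and Aspm at 31.7, Ube2t at 53.7, Lin9 at 65.6 and Nek2 at 73.8. Cenpl was the furthest from its group: with a transcript of 4883 bases it stood at percentile 94.3 of a group whose median was -0.01. The part of transcript length in these differences was not tested.

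**Figure D3:**
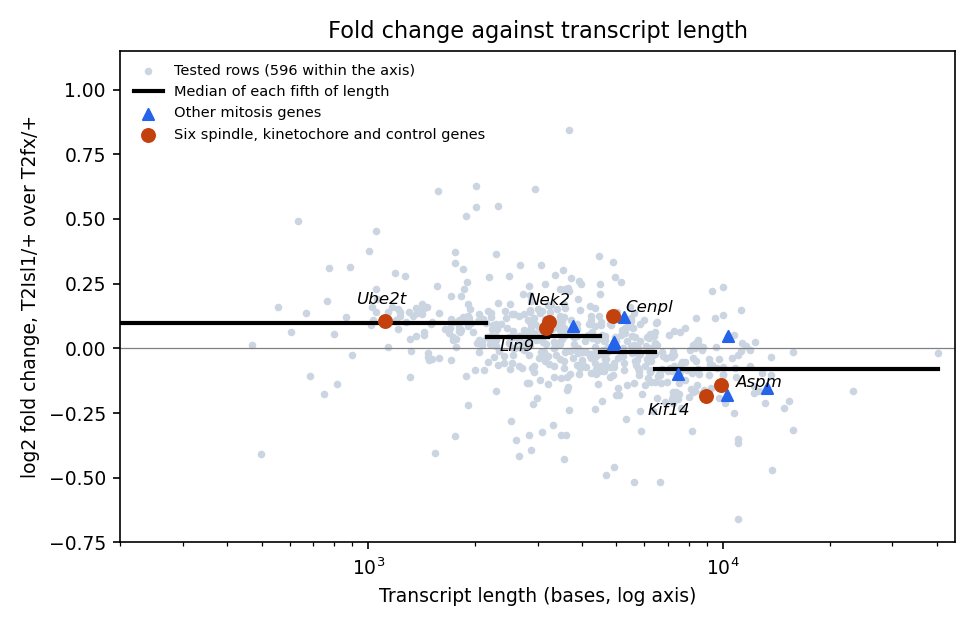
Log2 fold change of T2Isl1/+ over T2fx/+ against the length of the longest coding transcript (log axis) for the tested rows (pale points), the 6 genes (orange circles) and other mitosis genes (blue triangles), with the median of each of 5 length groups as a black bar; 16 rows lie outside the axes. Aspm and Kif14 sit among the long transcripts below zero, and the other genes of the 6 sit above zero.

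The other mitosis genes of chromosome 1 also had small differences. They were listed for a part in mitosis, and whether each is limited to dividing cells was not tested. Of 15 listed, 9 were among the tested rows, and 0 were called higher and 0 lower at a q-value under 0.05, with 0 at an unadjusted p-value under 0.05. The remaining 6, Cenpf, Nuf2, Cep170, Ahctf1, Lbr and Ppp2r5a, were not analysed here. The median log2 fold change of the 9 tested genes was 0.02, with 5 above zero and 4 below. Among the kinetochore genes, Nsl1 of the MIS12 complex had 15.7 FPKM in T2Isl1/+ and 15.6 FPKM in T2fx/+ retinas in the authors' deposited table. Sgo2a, which protects centromeric cohesin and is listed as Sgol2a, had 7.56 FPKM in T2Isl1/+ and 7.42 FPKM in T2fx/+ retinas in the authors' deposited table. The row of Hjurp, the chaperone of the centromeric histone CENP-A, also carries the name A730008H23Rik, and its 52.3 FPKM in T2Isl1/+ and 57.2 FPKM in T2fx/+ retinas (the authors' deposited table) cannot be divided between them.

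Among the spindle and centrosome genes of this list, Clasp1, which stabilises microtubule plus ends at kinetochores, had 24.5 FPKM in T2Isl1/+ and 27.8 FPKM in T2fx/+ retinas, with the list's smallest unadjusted p, 0.109 in the authors' deposited table. Cep350, a large centrosomal protein, had 4.19 FPKM in T2Isl1/+ and 4.66 FPKM in T2fx/+ retinas in the authors' deposited table. Nek7, a kinase of the same family as Nek2 with a part in spindle assembly, had 15.3 FPKM in T2Isl1/+ and 14.1 FPKM in T2fx/+ retinas in the authors' deposited table. For Tpr, which encodes a nuclear pore protein, the authors' deposited table gave -0.10 on the log2 scale. That of Ppp1r7, a regulator of the phosphatase PP1, was 0.05, and that of Septin2, a cytokinesis gene listed as Sept2, was 0.09 (the authors' deposited table). Counting the 6 genes and this list together, 14 had an annotated length. Of the 6 in the longest group, 1 was above zero (Ppp1r7) and 5 were below, and of the 8 others, 8 were above zero. Hjurp, at -0.13 (log2, the authors' deposited table), had no length because its row joins 2 names, and it is in neither count. Over all tested rows with a length, 21.95% of the longest group and 43.4% to 73.2% of the other groups were above zero.

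Genes of replication, of progenitors and of post-mitotic neurons were set beside them. All 10 tested replication and repair genes had a q-value of 0.999677, with a median log2 fold change of -0.01 and a range from -0.12 for Pms1 to 0.08 for Exo1 in the authors' deposited table. Of these, 5 were above zero and 5 below. Exo1, the highest, was also the only one in the longest length group, so this list did not follow the split by length. The 5 progenitor and neurogenic genes, which were Fzd5, Hes6, Btg2, Rgs16 and Lhx9, had a median of -0.01 and 0 calls. They ranged from -0.46 for Lhx9 to 0.12 for Hes6, with 2 above zero and 3 below. The 11 tested rows of post-mitotic neuron genes, from 10 genes, had a median of -0.17. Of the 11 rows, 10 were below zero, 0 were called and 9 were in the longest length group. Rims1 gave both a row at -0.02 and the only row above zero, at 0.02. Plxna2 and Tfap2b of this list had an unadjusted p-value under 0.05, at -0.35 and -0.32 on the log2 scale (the authors' deposited table). Over all tested rows, 3.72% had such a p-value and 1.55% were called.

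**Figure D4:**
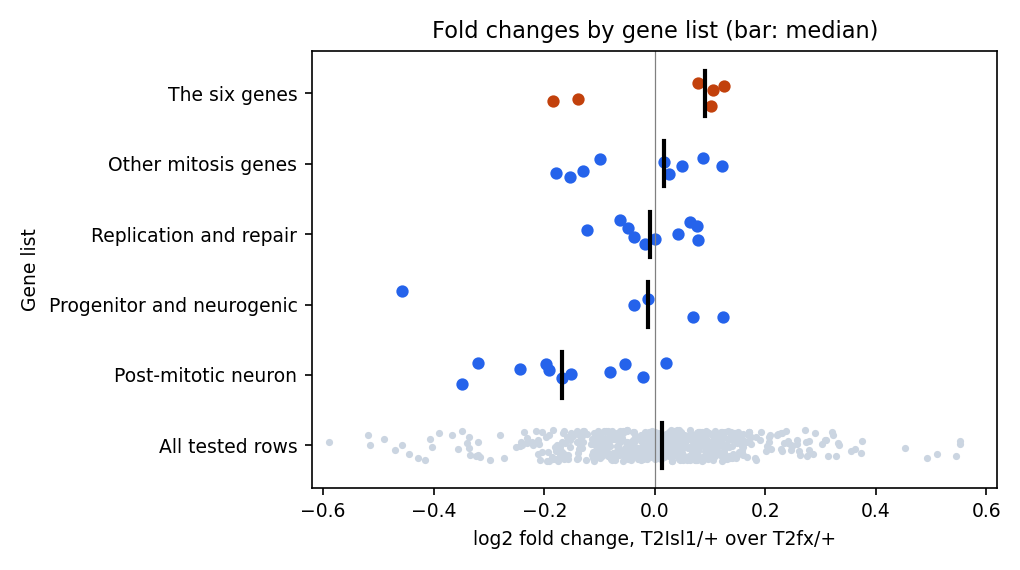
Log2 fold changes of T2Isl1/+ over T2fx/+ for single rows (points, scattered vertically for legibility) in each gene list and in all tested rows, with the median as a black bar; 20 tested rows lie beyond the axis. The 6 genes have a median of 0.09 and the other mitosis genes one of 0.02, beside 0.01 for all tested rows.

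Lens transcripts differed between the pools, while Hes6 and Glul were abundant in both. Hes6, which had the highest log2 fold change of the progenitor and neurogenic list, was at 414 FPKM in T2Isl1/+ and 380 FPKM in T2fx/+ retinas in the authors' deposited table. Glul was at 248 FPKM in T2Isl1/+ and 245 FPKM in T2fx/+ retinas in the authors' deposited table. Whether Glul marks glia at E15.5 was not tested. Lens genes, 8 of which had a row, summed to 93.6 FPKM in T2Isl1/+ and 1038 FPKM in T2fx/+ retinas. Of the 7 tested, 7 were called lower, and Lgsn was listed at 0 in both groups. Lens genes made up 0.45% of the FPKM of the rows analysed in T2Isl1/+ and 5.003% in T2fx/+ retinas. Of the mesenchyme and vessel list, 1 of 7 tested genes was called lower (Col3a1) and 3 had an unadjusted p-value under 0.05. Col3a1 had 0.637 FPKM in T2Isl1/+ and 5.76 FPKM in T2fx/+ retinas in the authors' deposited table. The others of these 3 were Col5a2, with 3.88 FPKM in T2Isl1/+ and 5.56 FPKM in T2fx/+ retinas (q = 0.0588), and Twist2, with 0.0703 FPKM in T2Isl1/+ and 0.677 FPKM in T2fx/+ retinas (unadjusted p = 0.00555), both in the authors' deposited table. The list summed to 115 FPKM in T2Isl1/+ and 119 FPKM in T2fx/+ retinas, most of it from Col9a1, and without Col9a1 to 29.3 FPKM in T2Isl1/+ and 38.1 FPKM in T2fx/+ retinas. Of the muscle list 1 gene was tested and called lower (Chrng), and of 3 photoreceptor genes 0 were called. With both groups scaled to the same FPKM sum without the lens genes, each log2 fold change moved by -0.07. The 6 genes kept their signs under that scaling, with Lin9 at 0.01 and Kif14 at -0.26. The part of lens and other tissue in the values of the 6 genes was not tested.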

How the data were processed

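Per the labels, total RNA of E15.5 mouse retina was sequenced in 6 libraries, 3 per genotype, and 8 retinas were pooled for each. TopHat2 2.1.1, Cufflinks 2.1.1, CASAVA and the build mm10 are listed in the submitters' processing notes, and the gene annotation is not stated. The authors deposited a table of Cuffdiff layout with 1 FPKM value per gene and group, a unit inferred from the tool named, since the header says only value. The log2 fold change in the deposited table is T2Isl1 over T2fx without a pseudocount. It matched the ratio of the values within 1.06e-05. Each row has the authors' p-value and q-value, per the file headers. The authors' test score was not used.

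The 1140 complete rows cover chromosome 1 in part, and 1 incomplete row was left out. Starts count from 0 in the table, so 1 was added. Genes were called at a q-value under 0.05, and no new test was made. The genes and lists were chosen with earlier results of these data known. The named genes were the 6 genes, every tested gene of the mitosis list and summaries of the other lists. Lengths were those of the longest coding transcript in GENCODE M21 (of any transcript where none codes), found for 94.7% of tested rows. The 5 RefSeq windows were matched by symbol, and that of Kif14 does not cover the GENCODE M21 start of the gene. The adjustment was checked on simulated p-values against another implementation. A check of the fold calculation only returned its own input, so it could not fail. Python 3.11.15 and pandas 2.3.3 were used. The p-values are the authors' own, from Cuffdiff, and bear on these pools only. The spread between libraries cannot be read from them. Whether pools shared litters is not stated in the labels.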

Additional observations from a re-analysis of the deposited data

How the results depend on the processing

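No setting called any of the 6 genes: 0 were higher and 0 lower at q-values under 0.01 and 0.2, at an unadjusted p-value under 0.05, with Benjamini-Hochberg adjustment over the tested rows alone (adjusted p of 0.998 for each) and with a floor of 1 FPKM. The q-value under 0.01 and the floor of 1 FPKM could only remove calls, so with 0 calls in the main setting their outcome was fixed. Each of the 6 log2 fold changes kept its sign when centred on the median of tested rows and when scaled to an equal sum without lens genes. A pseudocount of 1 FPKM, also applied, changes the size of a log2 fold change but cannot change its sign. Neither a pseudocount nor a small shift could make a call here. Aspm ranged from -0.21 to -0.12 and Kif14 from -0.26 to -0.14. Nek2 ranged from 0.03 to 0.10, Cenpl from 0.05 to 0.13, Ube2t from 0.03 to 0.11 and Lin9 from 0.01 to 0.08. The median of the 6 was 0.08 with the pseudocount and when centred, 0.02 when scaled without lens genes and 0.09 without Kif14 and Nek2, whose loci overlap other annotated genes. The median of the other mitosis genes changed sign when scaled without lens genes, to -0.055, since that scaling shifts every row by -0.07. The median of the longest length group was -0.08 also with the longest transcript of any kind, a setting chosen after seeing the data.

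No paired analysis was possible because the authors combined the 3 libraries of each genotype before deposit. No library was left out for the same reason, and depth is unknown.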
